A study of Rattus norvegicus with 8 samples.

Results

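Angiotensin II acts on the adrenal gland through its type 1 and type 2 receptors. The rat has paralogous genes, Agtr1a and Agtr1b, for the type 1 receptor and a single gene, Agtr2, for the type 2 receptor. The genes described here are those of the receptors together with Agt, which encodes the precursor angiotensinogen, Ace, which encodes the enzyme that converts angiotensin I to angiotensin II, and Dlk1, a transmembrane protein made in the outermost layers of the rat cortex. The members were chosen by gene symbol, as every probe set that the platform annotation assigns to 1 of these 6 genes. The 6 are among 10411 genes named on the array, and they gave 9 of 15923 probe sets, and 0 probe sets with several symbols named a member. Of the 9, 8 passed the brightness filter (a mean signal of about 95.2 over all pools) and entered the fit.

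The study asked how low oxygen from birth changes adrenal gene expression in rat pups. Hypoxic samples came from pups kept with their dams at 12% O2 from birth to postnatal day 7, and normoxic samples from pups kept with dams in room air and fed ad libitum. Every sample was a pool of 24 glands whose capsule had been stripped off, with 4 pools in each group, each read on 1 array in 1 colour. Strain, sex and the spread of litters over pools are not given in the sources used here, and no genetic change is named for either group.

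As background, angiotensinogen is the protein from which the angiotensin peptides are cut, converting enzyme makes angiotensin II, and angiotensin II binding to the type 1 receptor on glomerulosa cells, the outermost steroid-producing layer, drives calcium entry and aldosterone synthesis. In rats Agtr1b is the type 1 gene known for its expression in the glomerulosa and the anterior pituitary, while Agtr1a is the common form in vessels, kidney and liver. The type 2 receptor is abundant in fetal and newborn tissue and is made in the adrenal medulla as well as the cortex.

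The arrays had medians between 228.2 and 248.7 arbitrary units once the authors had scaled them to 1 shared mean. As a measure of background, the probe sets for bacterial genes gave a median of 5.4 and reached 83.5 at most. The tissue label was borne out by the steroidogenic gene Cyp11a1, at 19635 ± 3240 in hypoxic and 18384 ± 2421 in normoxic pools, and by the adrenaline-forming enzyme gene Pnmt, at 10270.3 ± 2071 in hypoxic and 9615 ± 1658 in normoxic pools (SD, n = 4 pools each). In these decapsulated glands 11 of 15 measured outer cortex and capsule genes passed the brightness filter. Lef1, Lgr5, Shh and Nr2f1 of that list missed the filter, and Shh and Nr2f1 lay within the range of the bacterial controls. How much outer cortex each pool kept after the capsule was stripped off was not tested. Cyp11b2, the aldosterone synthase gene of the glomerulosa, had no probe set of its own and is not analysed here. Over all genes, limma called 20 of 11106 probe sets at an adjusted p of 0.05 (Benjamini-Hochberg), which is 0.18%.

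The upstream sequences of the receptors and of Dlk1 are shown because their levels did not all follow the same pools. They run from 250 bases before to 50 bases after the annotated start, 5′ to 3′ on the gene's strand, from RefSeq in build GRCr8. Capitals mark TATAAA and the cores ACGTG and GCGTG of the hypoxia response element, searched on both strands.
Agtr1a, chr17:34435383-34435682, minus strand: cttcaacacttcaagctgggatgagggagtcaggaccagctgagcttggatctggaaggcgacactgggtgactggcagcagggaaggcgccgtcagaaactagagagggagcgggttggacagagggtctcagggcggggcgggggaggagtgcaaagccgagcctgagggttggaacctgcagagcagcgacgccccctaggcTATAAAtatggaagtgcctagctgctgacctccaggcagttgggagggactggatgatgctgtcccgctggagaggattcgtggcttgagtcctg
Agtr1b, chr2:104849213-104849512, minus strand: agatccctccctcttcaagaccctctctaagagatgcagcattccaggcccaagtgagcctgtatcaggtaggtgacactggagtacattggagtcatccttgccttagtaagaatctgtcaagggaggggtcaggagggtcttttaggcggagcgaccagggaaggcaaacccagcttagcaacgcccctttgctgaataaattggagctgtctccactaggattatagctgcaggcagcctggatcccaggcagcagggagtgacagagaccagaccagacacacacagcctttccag
Agtr2, chrX:116914070-116914369, plus strand: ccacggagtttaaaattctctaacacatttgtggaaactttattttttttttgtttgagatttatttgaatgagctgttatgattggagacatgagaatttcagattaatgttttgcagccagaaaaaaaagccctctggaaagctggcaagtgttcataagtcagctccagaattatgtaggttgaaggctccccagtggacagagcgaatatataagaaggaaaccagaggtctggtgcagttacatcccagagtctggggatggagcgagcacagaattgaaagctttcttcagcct
Dlk1, chr6:134192347-134192646, plus strand: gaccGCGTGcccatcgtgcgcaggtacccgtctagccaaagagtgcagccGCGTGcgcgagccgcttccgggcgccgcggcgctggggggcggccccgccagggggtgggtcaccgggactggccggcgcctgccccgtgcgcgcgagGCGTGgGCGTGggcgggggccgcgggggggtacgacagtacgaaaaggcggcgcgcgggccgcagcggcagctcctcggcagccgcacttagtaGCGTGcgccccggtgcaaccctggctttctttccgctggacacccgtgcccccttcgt
Of the 6 genes, 5 had an entry in the table used, and Agt had none. TATAAA stood 45 bases before the Agtr1a start. The Ace window, whose sequence is not printed, held 1 on the opposite strand, and the windows of Agtr1b, Agtr2 and Dlk1 held 0. Of 33469 rat promoters of this length, 14.2% hold it on either strand. The Dlk1 window held 5 GCGTG motifs and was 76% G or C, whereas the 3 receptor windows and that of Ace held 0 ACGTG and 0 GCGTG motifs. ACGTG or GCGTG is in 41.6% of the promoters. These matches are of letters in a window, and no measurement of binding goes with them.

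None of the 6 genes differed detectably between hypoxic and normoxic glands. In limma 0 of the 8 tested member probe sets reached an adjusted p of 0.05, against 0.18% of all probe sets, and 0 had an unadjusted p under 0.05, against 8.64%. The lowest unadjusted p was 0.151 and the lowest exact permutation p was 0.257 (two-sided), where 4 pools against 4 can go no lower than 0.0286. The 4 hypoxic values overlapped the 4 normoxic values on all 9 member probe sets, including the dim Ace probe set, while 5.39% of all tested probe sets had no overlap. All log2 differences below are hypoxic minus normoxic on the log2(intensity + 16) scale, which understates changes of dim probe sets. In pooled tissue, fewer cells of a type and less RNA per cell cannot be told apart.

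Agtr1a, the type 1A receptor gene, was read by 2 probe sets, and both had lower means in hypoxic pools. Whether the probe sets of Agtr1a and Agtr1b also read RNA of the other paralogue was not tested. On the brighter probe set, 1384240_at, hypoxic pools 1 to 4 read 499.1, 373.6, 448.1 and 324.7, against 489.8, 477.4, 431.9 and 474.1 in normoxic pools 1 to 4. Hypoxic pools 2 and 4 lay below every normoxic pool, and hypoxic pool 1 lay above every normoxic pool. The log2 difference was -0.20, with a 95% interval from -0.49 to 0.10 (limma, adjusted p = 0.734), and it was -0.09 without hypoxic pool 4. On the dimmer probe set, 1369291_at, the hypoxic pools read 239, 220.7, 225.6 and 218.2, against 232.5, 216.4, 313.8 and 311.5 in the normoxic pools. There the hypoxic values lay close together, and normoxic pools 3 and 4 stood above the rest. The log2 difference was -0.22, with an interval from -0.53 to 0.10 (limma, adjusted p = 0.721), and it was -0.14 without normoxic pool 3 or 4. The probe sets gave like differences between the groups, 0.02 apart on the log2 scale (exact permutation p = 0.943, two-sided, adjusted p = 0.943 over 3 genes), but they did not rank the pools alike.

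Agtr1b, the type 1B receptor gene, differed more between pools of the same group than between groups. Hypoxic pools 1 to 4 read 642.2, 369.1, 557.5 and 325.8, against 607.5, 328.9, 308.6 and 566 in normoxic pools 1 to 4. Hypoxic pools 1 and 3 and normoxic pools 1 and 4 lay at 557.5 or above, and the other 4 pools at 369.1 or below, with nothing between. The means were 474 ± 151 in hypoxic and 453 ± 156 in normoxic pools (SD, n = 4 each), a log2 difference of 0.07 with an interval from -0.48 to 0.63 (limma, adjusted p = 0.967). Its sign turned without hypoxic pool 1 (log2 -0.09) or 3 (-0.02) or normoxic pool 2 (-0.05) or 3 (-0.08). The SD within groups was 0.47 on the log2 scale, larger than that of 96.3% of tested probe sets.

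Agtr2, the type 2 receptor gene, was also read by 2 probe sets, made from the same expressed sequence, and both had lower means in hypoxic pools. On the brighter, 1398288_at, hypoxic pools 1 to 4 read 1052.9, 685.9, 909.4 and 739.2, against 1362.9, 845.3, 801.3 and 1108 in the normoxic pools. Normoxic pools 1 and 4 were the highest of all 8, and hypoxic pools 2 and 4 the lowest. The log2 difference was -0.26, with an interval from -0.65 to 0.13 (limma, adjusted p = 0.732). It was -0.12 without normoxic pool 1, -0.17 without hypoxic pool 2 and -0.08 with the mean of 7 adipose genes as a covariate, an alternative chosen after the data were seen. On the dimmer probe set, 1369711_at, the hypoxic pools read 300.1, 196.2, 265.1 and 171.8, against 217.5, 220.6, 362.5 and 454.8 in the normoxic pools. Here normoxic pool 1, the highest on the other probe set, was the lowest of its group. The log2 difference was -0.37, with an interval from -0.90 to 0.16 (limma, adjusted p = 0.718), and -0.18 without normoxic pool 4. With the same adipose covariate it was -0.27. The probe sets differed by 0.10 in their log2 difference between groups (exact permutation p = 0.886, two-sided, adjusted p = 0.943 over 3 genes).

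The ligand precursor and its converting enzyme gave weak signals. Agt read 106.1, 112.6, 234.5 and 102.1 in hypoxic pools 1 to 4, against 127.1, 102, 95 and 109.2 in normoxic pools 1 to 4. Hypoxic pool 3 stood far above the other 7, which lay between 95 and 127.1. The log2 difference of 0.25 (interval -0.26 to 0.76; limma, adjusted p = 0.828) was -0.01 without hypoxic pool 3. As background, Agt is made chiefly in liver and also in fat. The summed liver and kidney list was 3175.5, 903.8, 1411.9 and 793.8 in hypoxic pools 1 to 4, against 756.1, 1067.4, 1743.8 and 1860.3 in normoxic pools, with Fgb and Umod of its 8 measured genes within the range of the bacterial controls. Within that list, Alb, the albumin gene, read 2002.8 in hypoxic pool 1 and 596 in hypoxic pool 3, against 273.8 to 1211.7 in normoxic pools. Serpina1, a protease inhibitor gene of liver, read 320 and 320.5 in those pools, above its range of 125.8 to 176.9 in normoxic pools. Ahsg of the same list read 478.9 and 197.7 there, against 113.8 to 253 in normoxic pools. In hypoxic pool 3 Alb and Ahsg thus lay within their normoxic ranges. The part of liver or fat RNA in the Agt values was not tested. Ace, an enzyme of the endothelial surface, read 122.5, 126.9, 158.6 and 163.2 in hypoxic pools 1 to 4 on probe set 1387791_at, against 124.4, 159.1, 120.9 and 113 in the normoxic pools. Hypoxic pools 3 and 4 and normoxic pool 2 were the higher ones. The log2 difference was 0.13, with an interval from -0.22 to 0.48 (limma, adjusted p = 0.871), and it ran from 0.07 without hypoxic pool 4 to 0.22 without normoxic pool 2. Its other probe set, 1370028_at, read 38.9, 15.9, 29.4 and 65.7 in hypoxic pools, against 61.8, 10, 4.2 and 41.5 in normoxic pools. All of these lay within the range of the bacterial controls, and this probe set missed the brightness filter.

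Dlk1, taken here as a marker of the outer cortex, was clearly above background and had a higher mean in hypoxic pools. It read 2187.1, 1699.7, 1811 and 1859.1 in hypoxic pools 1 to 4, against 1682.9, 1196.2, 1620.7 and 2042.5 in normoxic pools 1 to 4. The hypoxic values all exceeded those of normoxic pools 1, 2 and 3, and normoxic pool 4 exceeded all but hypoxic pool 1. The means were 1889 ± 210 in hypoxic and 1636 ± 347 in normoxic pools (SD, n = 4 each), a log2 difference of 0.23 with an interval from -0.09 to 0.54 (limma, adjusted p = 0.714). It was 0.08 without normoxic pool 2, and with any other pool left out it lay at or below 0.34. Which cells of the gland gave the Dlk1 signal was not tested.

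**Figure D1:**
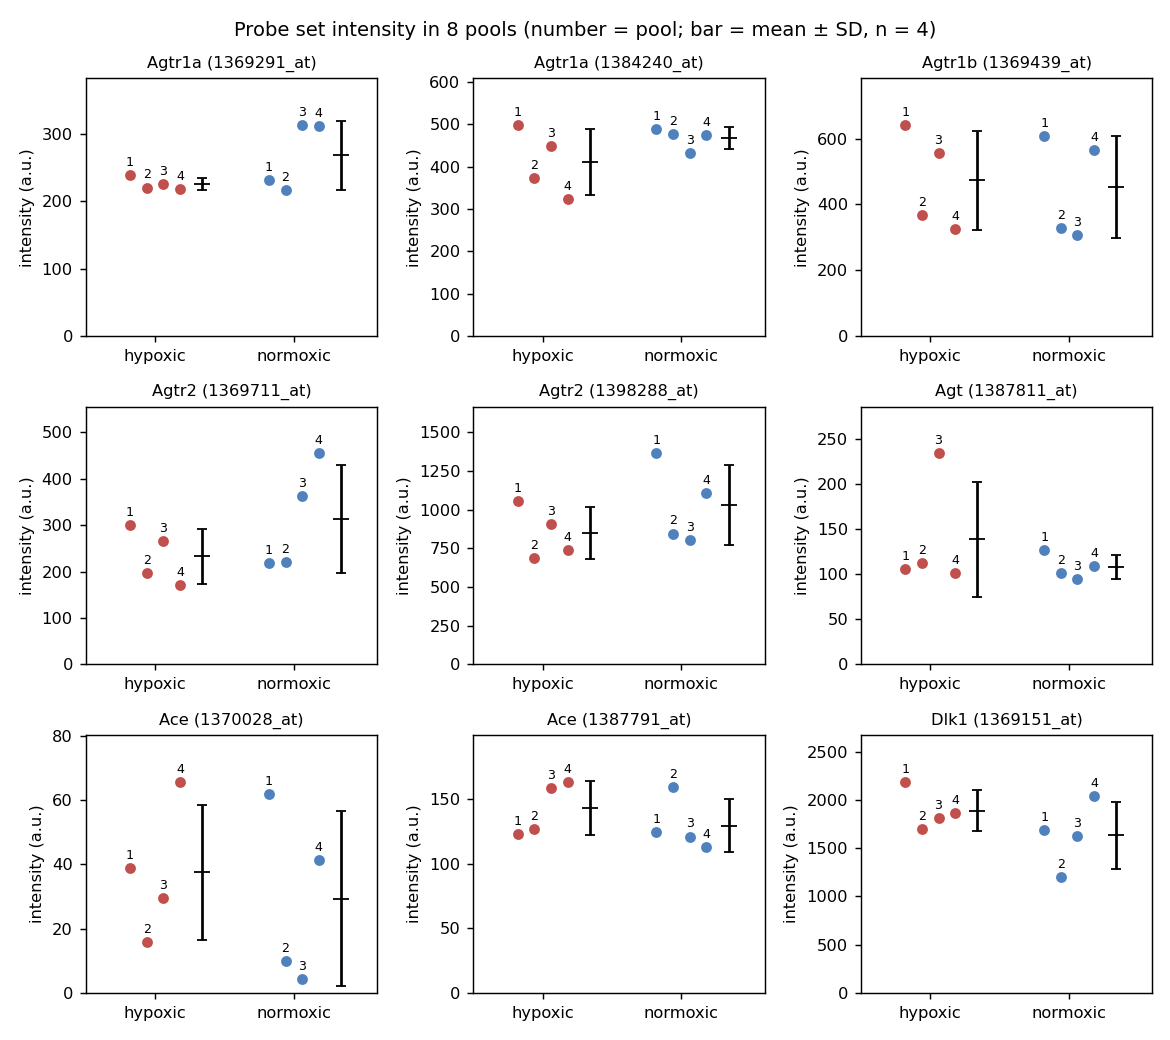
Intensity in arbitrary units (linear axis from 0) of the 9 member probe sets in each pool, hypoxic left and normoxic right, with the pool number above each point and the mean ± SD (n = 4) as a bar. The groups overlap on every probe set, Agtr1b has 4 pools at 557.5 or above and 4 at 369.1 or below, and Agt has 1 high pool, hypoxic pool 3 at 234.5.

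The pools in which Agtr1b was high were also high for some outer cortex genes and for most adipose genes measured. Of the 11 tested outer cortex and capsule genes, 5 had both hypoxic pools 1 and 3 above the other hypoxic pools and normoxic pools 1 and 4 above the other normoxic pools, an order noticed in these data and held by 4.84% of all tested probe sets. The 5 were Vsnl1, Dab2, Wnt4, Pdgfra and Axin2. Vsnl1, a calcium sensor gene of the glomerulosa, read 784.1, 458.2, 588.1 and 370.4 in hypoxic pools 1 to 4, against 951.3, 469.7, 484.7 and 1056.2 in normoxic pools 1 to 4. On its dimmer probe set the normoxic pools read 302, 215.9, 311.7 and 378.5, so normoxic pool 3 exceeded normoxic pool 1 and the order was not held. Dab2, an endocytic adaptor gene marking the rat glomerulosa, read 1110.4, 941.4, 1231.9 and 804.9 in hypoxic pools, against 1299.6, 780.9, 983.2 and 1583.7 in normoxic pools. Wnt4, a signalling gene of the outer cortex that was chosen after its values were seen, read 716.2, 379.5, 429.4 and 376.1 in hypoxic pools, against 669.4, 337, 196 and 549.2 in normoxic pools. At the brightest probe set of each of these genes the highest values of each group fell in hypoxic pools 1 and 3 and normoxic pools 1 and 4. The same held for Agtr1b and for the brighter Agtr2 probe set. Dlk1 did not follow this order, since hypoxic pool 4 exceeded hypoxic pool 3. Neither did the other 6 outer cortex genes. Gata6, a transcription factor gene chosen after its values were seen, ran partly the other way, at 524.8, 641.8, 567.8 and 746.9 in hypoxic pools, against 461.2, 506.8, 1062.1 and 746.7 in normoxic pools.

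Of 7 tested adipose genes 6 had this order of pools, and the sum of the list had it too. The summed intensity of its 8 measured genes was 8189, 2965, 8838 and 4794 in hypoxic pools 1 to 4, against 12517, 4005, 4644 and 11256 in normoxic pools 1 to 4. Fabp4, the fatty acid binding protein gene of adipocytes, read 4417.8, 1037.4, 4756.1 and 2064.3 in hypoxic pools, against 5088, 1550.8, 1911.9 and 4602.3 in normoxic pools. Of the list, Lep lay within the range of the bacterial controls and Adipoq had no probe set of its own. The summed outer cortex and capsule list ran from 8396 to 10477 in hypoxic and from 8666 to 10710 in normoxic pools, with hypoxic pools 1 and 3 and normoxic pools 1 and 4 again the highest. Of 13 lists, 4 had this order in their sums, the others being the smooth muscle and pericyte list (1163.7, 1039.5, 1400.5 and 1106.3 in hypoxic pools 1 to 4, against 1606.1, 1207.9, 874.3 and 1523.1 in normoxic pools) and the receptor partner list. In these the order was held by 1 of 6 and 1 of 7 tested genes. The part of other tissue in the receptor values was not tested. With the mean of 7 adipose genes as a covariate the log2 difference was 0.34 for Agtr1b (limma, adjusted p = 0.560) and 0.34 for Dlk1 (adjusted p = 0.472). For Agtr1a it was -0.13 on the brighter probe set (limma, adjusted p = 0.845) and -0.20 on the dimmer (adjusted p = 0.769).

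**Figure D2:**
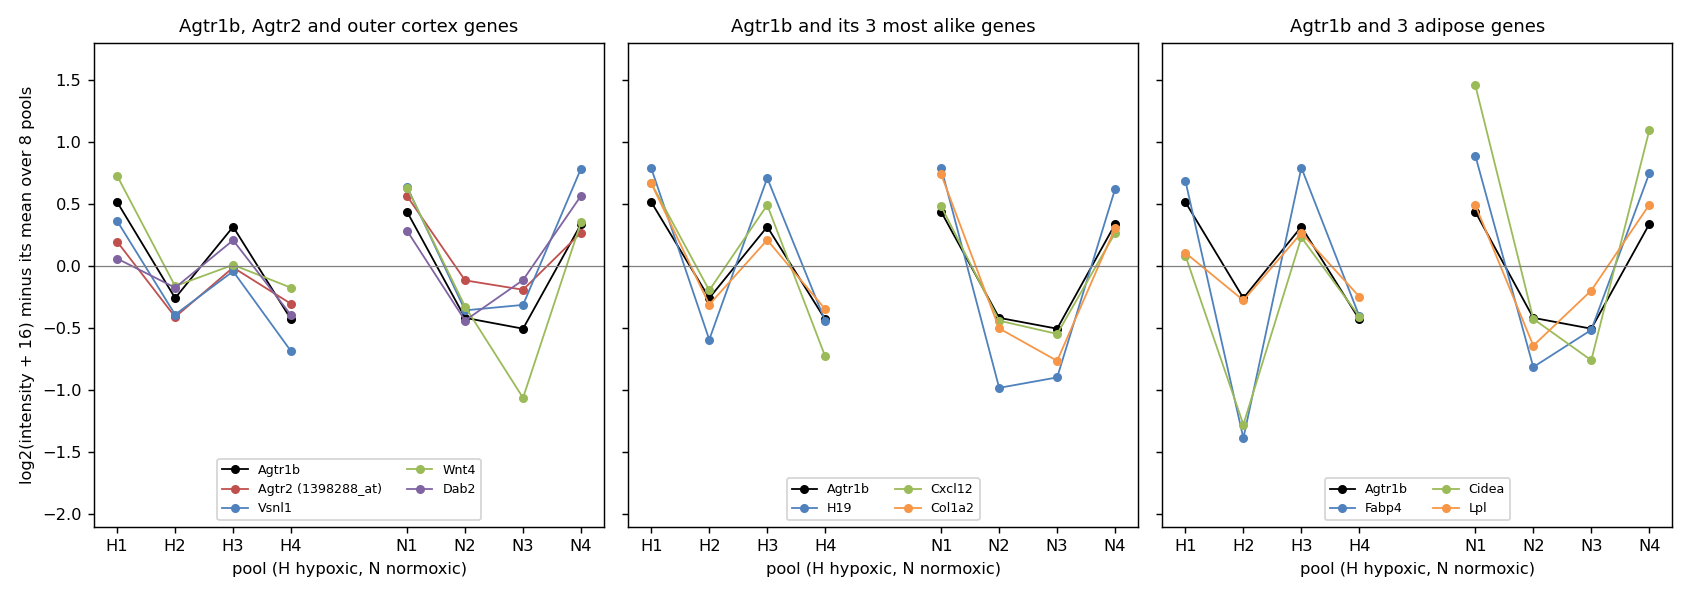
Each line gives log2(intensity + 16) of 1 probe set minus its mean over the 8 pools, by pool, with hypoxic pools H1 to H4 left and normoxic pools N1 to N4 right. Agtr1b (black in all panels) lies above its mean in H1, H3, N1 and N4, as do its 3 most alike genes and the adipose genes Fabp4, Cidea and Lpl; Agtr2 and Vsnl1 in H3 lie just below their own means.

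Across the array, the genes whose values over the 8 pools were most like those of each member were listed by Pearson correlation, which is a description of these pools. For Agtr1b they were the imprinted noncoding RNA gene H19 (r = 0.98), the chemokine gene Cxcl12 (0.98) and the collagen chain gene Col1a2 (0.97). As Agtr1b falls into separate high and low pools, these coefficients mostly express that division. H19 read 3185.2, 1213.3, 3015.1 and 1347 in hypoxic pools 1 to 4, against 3193.7, 923.1, 979.5 and 2836.3 in normoxic pools 1 to 4, so it divided the pools as Agtr1b did. Col1a2 read 2813.3, 1422.1, 2047.2 and 1385 in hypoxic pools, against 2957.8, 1242.9, 1034.3 and 2189.2 in normoxic pools. For Agtr2 at its brighter probe set the most alike were the mitotic kinesin gene Kif15, the secreted glycoprotein gene Fstl1 and the insulin-like growth factor binding protein gene Igfbp5 (r = 0.96 each).

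The other members were matched by other genes. For Agtr1a at its brighter probe set these were the chromatin protein gene Dek (r = 0.98), Nemp2 (0.97) and Mdga1 (0.97) over the 8 pools. Dek read 1537, 1181.7, 1500.4 and 955.5 in hypoxic pools, against 1607.4, 1593.3, 1412.4 and 1492.6 in normoxic pools, so hypoxic pools 2 and 4 were low as for Agtr1a. For Dlk1 they were Grb10, an adaptor of growth factor receptors (0.93), the sphingosine 1-phosphate receptor gene S1pr2 (0.92) and Psmg1, a proteasome assembly factor gene (0.91). For Agt they were Fxyd1, a regulator of the sodium pump (0.95), the mitochondrial carrier gene Slc25a42 (0.94) and the noncoding RNA gene Miat (0.92). All 3 had their highest value in hypoxic pool 3, at 660.5, 515.6 and 198.2. As Agt itself stood apart in that pool, a choice by correlation with Agt favoured genes that are high there. For Ace they were 6330403K07Rikl (0.94), Mast3 (0.94) and Rims3 (0.94). In limma 0 of these 18 genes passed, with adjusted p from 0.639 to 0.957, against 0.18% of all tested probe sets. Their choice by likeness to members that did not differ detectably between groups favoured this outcome, so it is no separate evidence.

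Between the members themselves, 10 pairs were compared over the 8 pools at their brightest probe sets, leaving out Agtr1b because its values fall into separate sets of pools, within which a relation could not be tested. Agtr1a and Agtr2 gave r = 0.76 (exact permutation p = 0.0267, adjusted p = 0.267) and Spearman's rho = 0.81 (exact permutation p = 0.0218, adjusted p = 0.218). Without the 2 pools farthest from the median of Agtr1a, r was 0.69, and after group means were removed it was 0.69. The other 9 pairs had r from -0.43 to 0.35, and 0 of 10 pairs passed after adjustment. Over the 8 pools the 2 probe sets of Agtr1a correlated with each other at r = 0.27, those of Agtr2 at 0.37 and those of Ace at 0.05. The pair values and the most alike genes of these members thus hold for their brighter probe sets only. After group means were removed, r was -0.72 for Ace and Dlk1 and 0.60 for Agtr2 and Dlk1, and the remaining pairs ran from -0.33 to 0.40. No test was run on that measure. Dlk1 and Agtr1a showed no detectable relation (r = -0.04, exact permutation p = 0.911, adjusted p = 0.911; rho = 0.10, exact permutation p = 0.840, adjusted p = 0.933).

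The enzymes that make or break down angiotensin peptides mostly had positive but small differences. Of 18 listed genes 13 were measured and 11 tested, of which 9 were above 0 and 2 below, with a median log2 difference of 0.17, against a median of -0.02, with 45.2% above and 54.8% below 0, over all tested probe sets. In limma 0 passed the adjusted threshold and 0 had an unadjusted p under 0.05. Rnpep, an aminopeptidase gene, had 891 ± 52.4 in hypoxic and 761 ± 91.0 in normoxic pools (log2 0.23, adjusted p = 0.582). Mme, the neprilysin gene, read 632, 715.7, 653.8 and 559.5 in hypoxic pools 1 to 4, against 488.5, 462, 566 and 678.6 in normoxic pools (log2 0.23, adjusted p = 0.681). Among the others, Anpep, the aminopeptidase N gene, and Ctsd, the cathepsin D gene, each differed by 0.20, Ctsa by 0.17 and Prep by 0.12. The median of the list was 0.07 without hypoxic pool 4 and 0.11 without hypoxic pool 3, and 9 or 10 of the 11 genes stayed above 0 with any 1 pool left out.

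Genes of receptor partners and of the signal that follows the type 1 receptor showed no detectable change as single genes. Of 9 measured receptor partner genes 7 were tested, 3 above and 4 below 0 (median -0.09), and 0 passed in limma. Agtrap, the protein that binds the type 1 receptor and promotes its internalisation, had 305 ± 57.2 in hypoxic and 347 ± 37.1 in normoxic pools (log2 -0.18, adjusted p = 0.780). Arrb2, the beta-arrestin 2 gene, read 121, 111.5, 127.6 and 83 in hypoxic pools, against 138.5, 140.7, 132.7 and 144.4 in normoxic pools. Its groups did not overlap, as for 2.64% of all tested probe sets in that direction, and its log2 difference was -0.30 (adjusted p = 0.638). Mtus1, which encodes a protein that binds the type 2 receptor, differed by 0.13, with -0.19 on its other probe set. The mineralocorticoid receptor gene Nr3c2 differed by -0.10, Grk5 by -0.09 and the bradykinin receptor gene Bdkrb2 by 0.03. On another probe set Bdkrb2 read 124, 108.4, 103.6 and 113 in hypoxic pools, against 86.6, 96.3, 91.8 and 59.2 in normoxic pools (log2 0.38, limma unadjusted p = 0.0495, adjusted p = 0.576). These groups did not overlap, as for 5.39% of all tested probe sets in either direction. A dimmer Bdkrb2 probe set that missed the brightness filter had lower hypoxic values on average (83.2 ± 11.0, against 104 ± 31.1 in normoxic pools).

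Of 22 measured genes of Gq and calcium signalling, 20 were tested, 9 above and 11 below 0 (median -0.01), and 0 passed in limma, with 1 in each direction at an unadjusted p under 0.05, where all tested probe sets gave 4.16% higher and 4.48% lower. Rgs2, which ends signalling by Gq, read 859.1, 755.2, 734.3 and 547 in hypoxic pools 1 to 4, against 1179.3, 906.2, 970.1 and 1270.1 in normoxic pools 1 to 4. All hypoxic values lay below all normoxic values, as for 2.64% of all tested probe sets. The log2 difference was -0.57 ± 0.15 (standard error; limma, adjusted p = 0.234), while its other probe set differed by -0.13. Itpr1, the inositol trisphosphate receptor gene, read 468.5, 403.6, 481.8 and 450.5 in hypoxic pools, against 422, 349, 348.1 and 344.8 in normoxic pools (log2 0.29, adjusted p = 0.491). Only normoxic pool 1 of its group reached into the hypoxic values. Plcb1 differed by 0.24, Itpr2 by -0.21, Plcb3 by 0.15 and Camk2b by 0.10. The other probe sets of Camk2b and Itpr2 differed by 0.51 (unadjusted p = 0.0409, adjusted p = 0.547) and -0.13.

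Of 18 measured genes that regulate aldosterone synthesis, 14 were tested, 7 above and 7 below 0 (median -0.02), and 0 passed in limma, with 1 in each direction at an unadjusted p under 0.05. Cacna1d, a subunit gene of L-type calcium channels, read 316.1, 328.1, 406.7 and 293.1 in hypoxic pools, against 420.4, 406.4, 411.5 and 411 in normoxic pools (log2 -0.29, adjusted p = 0.521). Hypoxic pool 3 lay among the normoxic values and the other hypoxic pools below them. Atp2b1, a calcium pump gene of the cell membrane, read 739.6, 736.3, 731.4 and 632.2 in hypoxic pools, against 731.6, 498.8, 508.9 and 574.8 in normoxic pools (log2 0.30, adjusted p = 0.546). Vsnl1 differed by -0.38 and, on its other probe set, by -0.35 (adjusted p = 0.765 and 0.662). Atf1 differed by -0.24, Nr4a2 by -0.15 and Creb1 by -0.12.

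**Figure D3:**
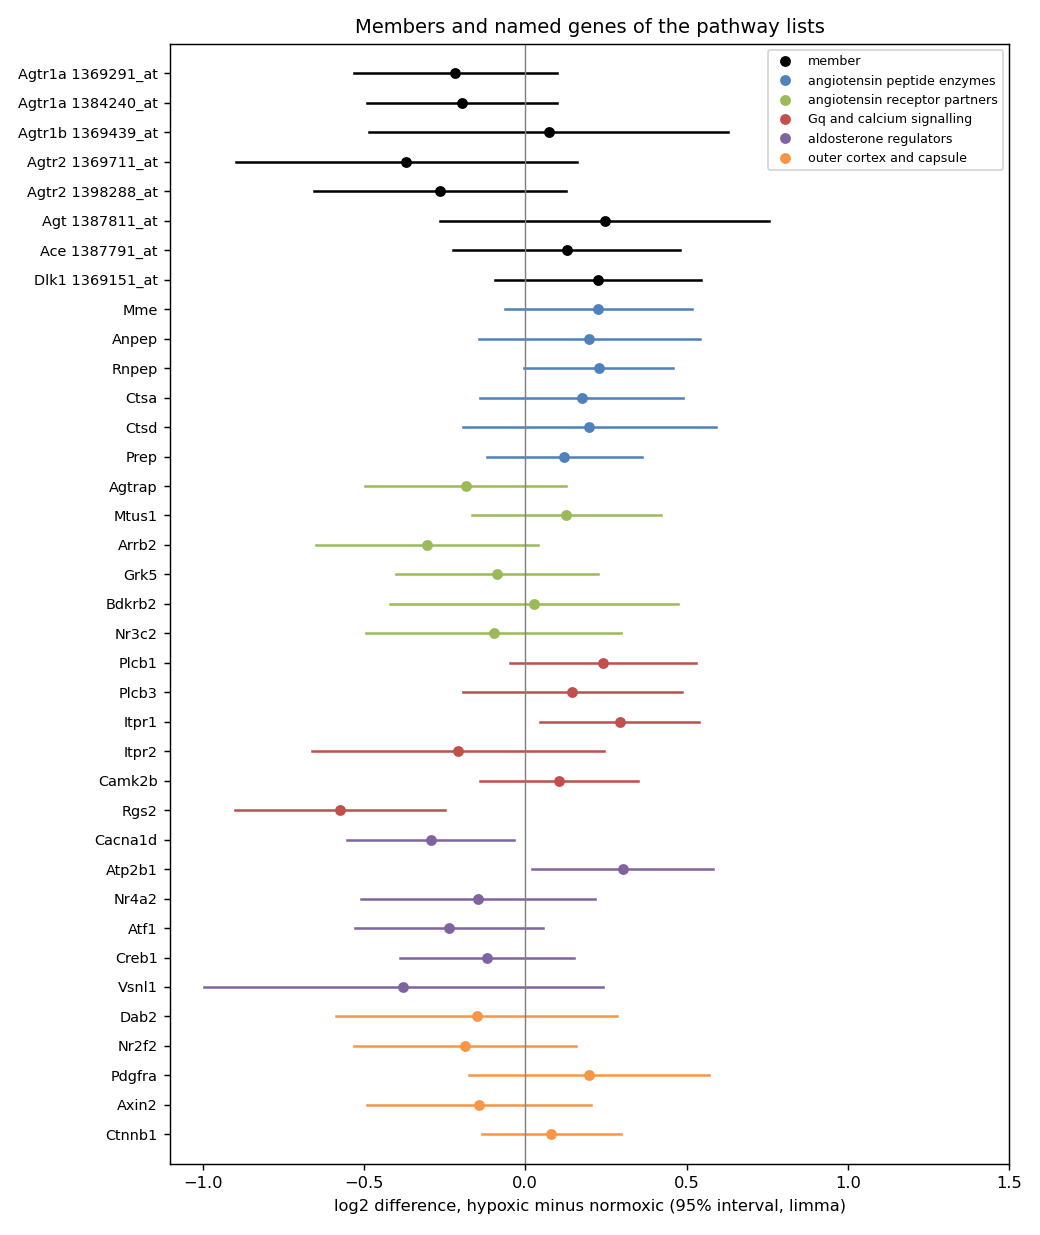
Log2 difference, hypoxic minus normoxic, with its 95% interval from limma, for the 8 tested member probe sets (black, top) and the named genes of the pathway and outer cortex lists (coloured by list). All member intervals include 0, and the point of Rgs2, at -0.57, is the lowest shown.

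Other outer cortex and capsule genes did not differ as single genes either. Of 15 measured genes 11 were tested, 5 above and 6 below 0 (median -0.06), with 0 past the threshold and 0 at an unadjusted p under 0.05 in limma. Nr2f2, a nuclear receptor gene of the capsule, had 664 ± 108 in hypoxic and 764 ± 168 in normoxic pools (log2 -0.19). Pdgfra, a receptor gene of mesenchymal cells, had 378 ± 73.9 in hypoxic and 329 ± 70.8 in normoxic pools (log2 0.20). Dab2 differed by -0.15, Axin2, a target of Wnt signalling, by -0.14 and Ctnnb1, the beta-catenin gene, by 0.08, with 0.03 and -0.16 on other probe sets.

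Marker lists of other cell types were read in the same pools. The median log2 difference was 0.03 for 9 inner cortex genes, 0.25 for 9 chromaffin genes, 0.02 for 8 endothelial genes and -0.18 for 6 smooth muscle and pericyte genes. It was -0.15 for 7 adipose genes, 0.09 for 4 liver and kidney genes, -0.19 for 2 Schwann cell genes and -0.30 for 6 leukocyte genes. With 1 pool left out the adipose median ran from -0.45 (without normoxic pool 2) to 0.03 (without normoxic pool 1), and the liver and kidney median from -0.24 (without hypoxic pool 1) to 0.37 (without hypoxic pool 4). In limma 1 chromaffin gene passed, the vesicular transporter gene Slc18a2, named here after its values were seen, and 0 of the others. All 9 chromaffin genes were above 0, and 5 had an unadjusted p under 0.05, against 4.16% of all tested probe sets in that direction. Of the 6 leukocyte genes 5 were below 0, and 3 had such a p, against 4.48%. So had 1 endothelial and 1 adipose gene, both lower, and 0 genes of the remaining lists in this paragraph. The summed chromaffin list ran from 38311 to 53738 in hypoxic and from 32880 to 44024 in normoxic pools. Among the endothelial genes, which share the site of Ace, Kdr had 1874 ± 194 in hypoxic and 1743 ± 218 in normoxic pools (log2 0.11), Emcn differed by -0.22 and Esam by 0.06. The endothelial sum was 4577, 5453.8, 5160.5 and 5000.6 in hypoxic pools 1 to 4, against 5195.9, 4689, 5304.2 and 5113.3 in normoxic pools. The brighter Ace probe set was instead highest in hypoxic pool 4 and normoxic pool 2, as was the chromaffin sum. Which cells gave the Ace signal was not tested. Pecam1, an endothelial adhesion gene named here after its values were seen, read 173, 208.2, 174 and 227.3 in hypoxic pools, against 290.3, 317.7, 240.8 and 304.9 in normoxic pools. Its groups did not overlap, as for 2.64% of all tested probe sets in that direction (log2 -0.53, limma unadjusted p = 0.0027, adjusted p = 0.238). In smooth muscle, a site of Agtr1a, Acta2 had 349.9 ± 43.6 in hypoxic and 343.5 ± 49.2 in normoxic pools (log2 0.03), Tagln differed by -0.48 and Des by -0.18 (SD, n = 4 pools each).

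**Figure D4:**
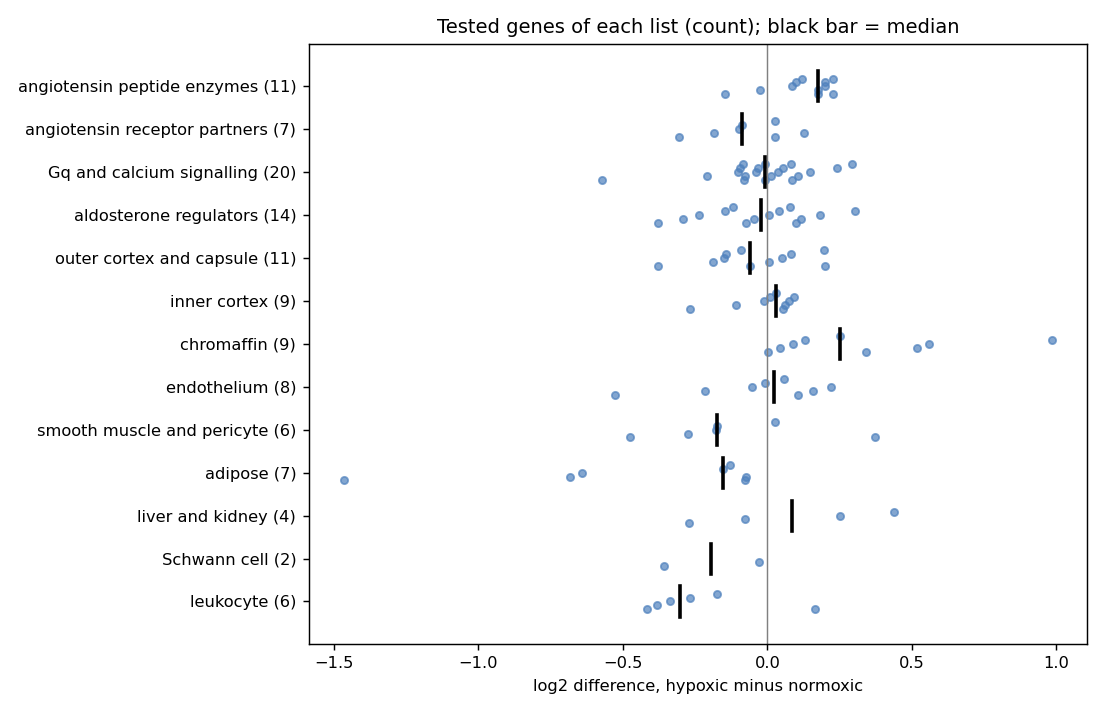
Each point is the log2 difference, hypoxic minus normoxic, of 1 tested gene at its brightest probe set, by list with the number of tested genes, and the black bar is the median of the list. The median of the angiotensin peptide enzymes is 0.17 and that of the outer cortex and capsule genes -0.06.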

How the data were processed

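RNA of 8 pools of rat adrenal glands was measured on oligonucleotide arrays. Per the labels, total RNA was extracted with TRIzol and made into biotin-labelled cRNA. The deposited table holds linear probe set intensity in arbitrary units, and the authors had scaled every array to a trimmed mean of 500.1, as the values show. Of the summarising software, no name is given in the sources used here. Gene names came from the platform annotation, which can be old.

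Intensities were floored at 1, offset by 16 and put on the log2 scale. Without the 57 controls, the 11106 of 15866 probe sets whose mean reached the 30th percentile were tested with limma 3.58.1 (lmFit, eBayes with a variance trend; R 4.3.3), two-sided, and p-values were adjusted by Benjamini-Hochberg over all of them, with calls made at 0.05. Exact permutation tests used scipy 1.17.1. The steps were tested on simulated data. For limma the simulated noise was independent between probe sets, so differences between pools shared by many genes were not covered. Lists were described by counts and medians at the brightest tested probe set of a gene. Genes named are all members, up to 6 genes of lowest p in each pathway list and the outer cortex list, up to 3 brightest genes of each other marker list, and the 3 genes most correlated with each member. Members and lists were chosen with earlier results of these data known. The alternatives were the offset, filter, variance trend, quantile normalization, replicate block, RNA integrity, adipose covariate and leaving out each pool. The labels give pools as separate samples, and p-values measure the spread between them. The number of arrays limits the precision.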

Additional observations from a re-analysis of the deposited data

Results flagged for a closer look

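In each group of 4 pools, on the log2(intensity + 16) scale, the highest or lowest pool was set against Dixon's 95% critical value, and chance passes about 1 in 20 groups. Over the 79 probe sets of the members, of the list genes that the naming rule chose and of the most alike genes, 12 of 158 groups held a pool past it. Among the members this was Agt in hypoxic pool 3, at 234.5, against 102.1 to 112.6 in the other hypoxic pools. Its most alike genes Slc25a42 (515.6) and Miat (198.2) also stood apart in that pool, which their choice by correlation with Agt favoured. In hypoxic pool 1, Mtus1 was low at 963.8 and Bdkrb2 high at 113.9. In hypoxic pool 4, Ctsa was high at 1771.4, and Atp2b1 (632.2) and Emcn (924) were low. In normoxic pool 1, Agtrap was low at 291.4 and Itpr1 high at 422, and in normoxic pool 2, C1qc was high at 502.1 and Psmg1 low at 809.5.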

How the results depend on the processing

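In limma 0 of the member probe sets passed under any alternative run, and the smallest adjusted p of a member was 0.388. Both probe sets of Agtr1a and of Agtr2 stayed below 0 in every fit, and those of Ace and Dlk1 above 0. The log2 difference of Agtr1b was -0.080 with the beta-actin 5′ over 3′ ratio as a covariate and ran from -0.087 to 0.23 with 1 pool left out, and that of Agt from -0.011 to 0.35. Over all probe sets the count of 20 was 0 with no filter and with no variance trend, 37 with the beta-actin covariate and 9 with the adipose covariate, which was chosen after seeing the data, and ran from 0 to 31 with 1 pool left out. Whether pool numbers pair the samples could not be settled. Deviations of same-numbered pools correlated at 0.32, 0.00, 0.19 and -0.04. Pools 1 and 3 correlated best with their own number, and pools 2 and 4 did not. With the replicate block the count was 18, and the Agtr1b difference was 0.07 (adjusted p = 0.946). With the filter at the 50th percentile, which leaves fewer genes, the median was 0.03 for 3 receptor partner genes and -0.64 for 5 adipose genes. With 1 pool left out, medians ran from -0.19 (without hypoxic pool 2) to 0.04 for the aldosterone regulators, where it was -0.12 without normoxic pool 1, from -0.12 to 0.04 for the outer cortex and capsule genes and from -0.07 to 0.14 for the inner cortex genes. The cause of these shifts was not tested. The beta-actin ratio ran from 0.249 to 0.713 in hypoxic and from 0.413 to 0.744 in normoxic pools.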
